A study of Sus scrofa with 12 samples.

Results

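The SERPINA genes are a cluster of serpins, secreted proteins that mostly inhibit serine proteases, and the liver makes many of them. The genes described are those whose symbol is SERPINA1, SERPINA5, SERPINA6, SERPINA10, SERPINA11 or SERPINA12. Of these 6 symbols, 4 had a row among the 31694 rows of the mRNA files (SERPINA1, SERPINA5, SERPINA6 and SERPINA11), and 2 had none (SERPINA10 and SERPINA12) and were dropped. The members were chosen by their symbols after the liver RPKM of JH and LD pigs had been compared, with the drop of SERPINA11 in JH known, so the breed values of these 4 genes, and the count of them past the threshold, are given as a description, with no p-value.

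Liver mRNA was sequenced from 3 Jinhua (JH) pigs, a slow-growing, fat Chinese breed, and 3 Landrace (LD) pigs, a fast-growing lean breed that served as the control group. All pigs were uncastrated males of 70 days of age, neither breed was given a treatment, and each pig gave 1 library. The breeds were compared to find liver genes that differ between a fat and a lean type. Breed cannot be told apart from anything else in which these 2 groups of 3 pigs differed, such as body weight.

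Serpins act as decoys. A protease cuts the exposed reactive loop of the serpin, the serpin changes its shape, and both are trapped in a stable complex. SERPINA1 encodes alpha-1-antitrypsin, the main plasma inhibitor of neutrophil elastase, and SERPINA5 encodes the protein C inhibitor. SERPINA6 encodes corticosteroid-binding globulin, which no longer inhibits proteases and instead carries cortisol in the blood. Much of the cortisol in plasma is bound to it, and cutting of its loop releases the hormone. SERPINA11 is a little studied member of the same clade.

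Expression is given as RPKM, reads scaled to the length of the gene and the depth of the library, so levels can be set side by side between genes. The number of reads that each library was divided by was recovered from low values, and it was between 5744907 in JH1 and 7914514 in LD3. With these numbers, between 77.4% and 86.5% of the values of genes seen in a single library were worth 1 read of a gene with a whole number of bases. The ribosomal RNA gene RN18S took up between 0.245% of the summed RPKM in JH2 and 10.6% in JH3. The libraries held the hepatocyte genes ALB, TTR, TF, HPX and APOH at high levels, while APOB, another hepatocyte gene, was listed at 0 in all 6. A listed 0 can therefore be a failure of the gene count and not an absent mRNA. In whole liver tissue, fewer cells of a type and less RNA per cell cannot be told apart.

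SERPINA6 was lower in all 3 JH pigs than in any LD pig, and the LD mean was 20.1 times the JH mean. In JH1, JH2 and JH3 its level was 17.3, 14.1 and 14.8 RPKM. In LD1, LD2 and LD3 it was 312, 317 and 299 RPKM. The breeds did not overlap, and the highest JH value was 5.78% of the lowest LD value. The mean was 15.4 ± 1.66 RPKM in JH and 309 ± 9.60 RPKM in LD (mean ± SD of 3 pigs each). The difference JH minus LD on the scale of log2(RPKM + 0.1), called the log2 fold change below, was -4.33 with a standard error of 0.22.

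These levels rest on many reads. For a gene length of 1836 bases, the shortest at which all 6 RPKM values become whole reads, SERPINA6 had 182, 201 and 210 reads in the JH libraries and 4068, 4596 and 4338 reads in the LD libraries. Over the pooled reads the LD rate was 20.3 times the JH rate (95% interval 18.7 to 22.1, exact binomial, counting error only). The pigs within a breed were close to each other. The SD within breeds was 0.11 on the log2 scale, against a median of 0.39 over all tested genes, and the LD coefficient of variation was 3.11%. Among all genes, SERPINA6 held the ranks 226 to 243 by RPKM in the LD libraries and the ranks 2924 to 3615 in the JH libraries.

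SERPINA11 was near 0 in JH and clearly expressed in LD. It was listed at 0 RPKM in JH1 and JH3 and at 0.103 RPKM in JH2, and it was at 33.5 RPKM in LD1, 56.9 RPKM in LD2 and 34.1 RPKM in LD3. The JH2 value is a single read for a gene length of 1253 bases, and at this length the LD libraries held 298, 563 and 338 reads. The 3 LD pigs showed the gene with a mean of 41.5 ± 13.4 (SD, n = 3) RPKM, and at this length no JH library held more than 1 read. Longer lengths, multiples of this one, would give the same ratio with more reads. Against that 1 read in JH, the 1199 reads in LD are a rate 1112 times as high, with a 95% interval of 199 to 43940 (exact binomial, counting error only). This interval holds for a length of 1253 bases. It pools the reads of 3 pigs per breed, so it covers no spread between pigs and is no test of the breeds. The log2 fold change was -8.31 (standard error 0.38), and it depends on the pseudocount of 0.1, since a pseudocount of 1 gave -5.32 and one of 0.01 gave -10.8. SERPINA11 passed the limit on low values through the LD libraries alone. On this scale its fold change was the lowest of all 12993 tested genes, and that of SERPINA6 was the 18th from the lowest.

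SERPINA1 was by level the most abundant of the 4 genes in both breeds. It stood at 1267, 1448 and 1139 RPKM in JH1 to JH3 and at 1901, 2954 and 1964 RPKM in LD1 to LD3. The JH values all lay below the LD values, but the gap was small beside that of SERPINA6, with a highest JH value at 76.2% of the lowest LD value. The mean was 1285 ± 155 RPKM in JH and 2273 ± 590 RPKM in LD (mean ± SD of 3 pigs each), and the log2 fold change was -0.80 (standard error 0.27).

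SERPINA5 showed no such split. Its level was 969, 817 and 844 RPKM in the JH libraries and 867, 711 and 968 RPKM in the LD libraries, and the breeds overlapped. The log2 fold change was 0.05 (standard error 0.24), with means of 877 ± 80.9 RPKM in JH and 849 ± 130 RPKM in LD (mean ± SD of 3 pigs each). The difference was smaller than its standard error, and its sign turned without JH1 (-0.02), without LD2 (-0.07) and under quantile normalization (-0.18).

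**Figure D1:**
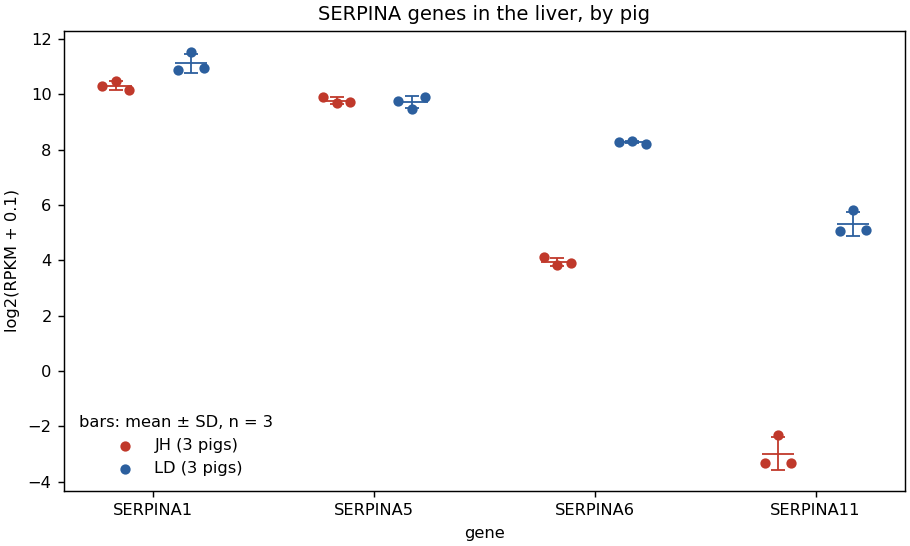
Level of each SERPINA gene on the y axis as log2(RPKM + 0.1), with 1 point per pig, JH in red and LD in blue, and bars for the mean ± SD of 3 pigs. SERPINA6 lies near 15.4 RPKM in JH and 309 RPKM in LD, SERPINA11 is at or near 0 in JH only, SERPINA1 is moderately lower in JH, and SERPINA5 overlaps between the breeds.

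A gene was called a differentially expressed gene (DEG) where its adjusted p was below 0.05 and its log2 fold change was above 1 or below -1. By this rule limma called 2 of the 4 genes, SERPINA6 and SERPINA11, and both were lower in JH. Over all tested genes 2.39% were called in either direction, 1.36% lower in JH and 1.02% higher in JH. The 3 JH values lay below the 3 LD values in 3 of the 4 genes and in 12.5% of all tested genes. Since the list was made with this contrast known, nothing is read from these counts.

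The genes form 1 cluster in the genome, and the order of genes was taken from the RefSeq annotation of the pig assembly Sscrofa11.1, a later build than that of the files, so no coordinates are given. From SERPINA6 the order runs over LOC100621494, SERPINA1, SERPINA11, UABP-2, LOC106504546 and LOC100157117 to SERPINA5. SERPINA6 and SERPINA11 are therefore not direct neighbours, since LOC100621494 and SERPINA1 lie between them. SERPINA1, the direct neighbour of SERPINA11, had the difference given above, smaller than that of SERPINA6 or SERPINA11.

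With 5 genes on either side, this stretch holds 18 genes, of which 10 had a row in the files. Besides the 4 SERPINA genes these were DDX24, ISG12(A), PPP4R4, LOC100621494, UABP-2 and LOC100153899. PPP4R4, a regulatory subunit of protein phosphatase 4 next to SERPINA6, and UABP-2, next to SERPINA11, were listed at 0 in all 6 libraries. LOC100621494, between SERPINA6 and SERPINA1, was low, with 9, 18 and 11 reads in JH and 19, 12 and 31 reads in LD. The breeds overlapped, and limma gave a log2 fold change of -0.51 ± 0.40 (standard error) with an adjusted p of 0.546 after Benjamini-Hochberg correction over all tested genes.

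None of the 4 neighbours that could be tested was called by limma. For DDX24, an RNA helicase, limma gave a log2 fold change of 0.68 and an adjusted p of 0.326. ISG12(A), an interferon-induced gene, ranged from 223 to 1176 RPKM in JH and from 150 to 500 RPKM in LD (adjusted p = 0.627 from limma). LOC100153899, beyond SERPINA5, ranged from 648 to 2448 RPKM in JH and from 207 to 1025 RPKM in LD (log2 fold change 1.17, adjusted p = 0.369 from limma). The breeds overlapped in all 4 of these neighbours. The remaining 8 genes of the stretch, which had no row, were not analysed here.

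**Figure D2:**
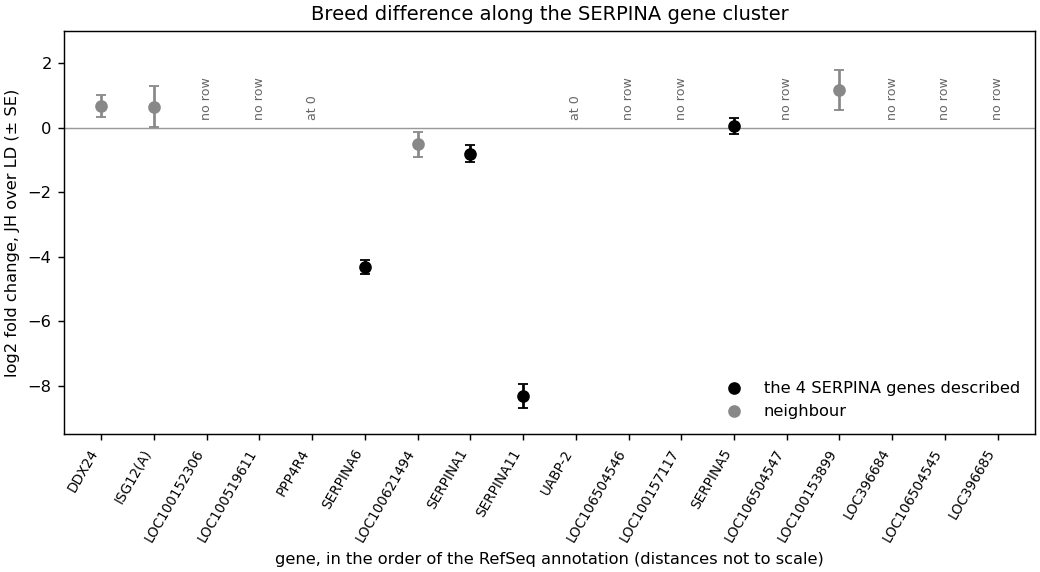
Log2 fold change of JH over LD with its standard error (y axis) for the genes around the SERPINA cluster in RefSeq order (x axis, distances not to scale), with the 4 SERPINA genes in black and neighbours in grey. SERPINA6 at -4.33 and SERPINA11 at -8.31 stand far below 0, SERPINA1 between them is at -0.80, and genes at 0 in all libraries or without a row carry no point.

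Besides the 4, 23 rows were counted as serpins by symbol, those starting with SERPIN and angiotensinogen (AGT). Serpins listed under other symbols were not counted. Of the 23, 14 passed the limit on low values. limma called 0 of the 14, against 2.39% of all tested genes, and limma without a variance trend also called 0. At an unadjusted p under 0.05 were 2 of the 14 (14.3%), against 17.9% of all tested genes. Their median log2 fold change was -0.17, against 0.04 over all tested genes, and 8 of the 14 were below 0. The 2 with an unadjusted p under 0.05, singled out after their values were seen, were SERPIND1 and AGT. SERPIND1, heparin cofactor II, an inhibitor of thrombin, was at 431 ± 67.2 RPKM in JH and 806 ± 190 RPKM in LD (mean ± SD of 3 pigs each) (log2 fold change -0.89, adjusted p = 0.126 from limma). AGT, the precursor of angiotensin, was at 149 ± 33.0 RPKM in JH and 298 ± 96.5 RPKM in LD (mean ± SD of 3 pigs each) (log2 fold change -0.98, adjusted p = 0.138 from limma). Under quantile normalization both were called, with an adjusted p of 0.0408 for SERPIND1 and 0.0466 for AGT.

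Within clade A, SERPINA7, thyroxine-binding globulin and another hormone carrier among the serpins, is on the X chromosome. It was at 97.2, 106 and 99.6 RPKM in JH and 95.3, 83.4 and 69.6 RPKM in LD. Its JH values all lay above its LD values, but the log2 fold change of 0.30 was not called (standard error 0.23, adjusted p = 0.542 from limma). The value for SERPINA7 was opposite in sign to that of SERPINA6, the cortisol carrier. SERPINA4, kallistatin, an inhibitor of tissue kallikrein, ranged from 17.2 to 49.9 RPKM in JH and from 13.8 to 21.1 RPKM in LD (log2 fold change 0.83, adjusted p = 0.301 from limma).

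Among the serpins counted by symbol, SERPINA3-3, related to alpha-1-antichymotrypsin, was the most abundant. It was at 4363 ± 1447 RPKM in JH and 3479 ± 600 RPKM in LD (mean ± SD of 3 pigs each) (adjusted p = 0.658 from limma). SERPINA3-2 was at 1192 ± 435 RPKM in JH and 1847 ± 727 RPKM in LD (mean ± SD of 3 pigs each) (adjusted p = 0.399 from limma). Several near-identical SERPINA3 copies lie side by side in the pig genome and can share reads, so the split between these rows is uncertain. SERPINF2, the plasmin inhibitor, which the liver normally makes, was listed at 0 in all 6 libraries.

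In the order of mean levels among the 27 serpins counted by symbol, SERPINA6 was 8th in LD and 13th in JH. In LD it stood below SERPIND1 and beside AGT, whose range of 227 to 408 RPKM overlapped with its own. In JH it stood below SERPINB1, a cytosolic serpin, and the ranges were apart. SERPINA1 was 2nd in LD, where its range overlapped with those of SERPINA3-3 above and SERPING1 below, and 4th in JH, where it overlapped with SERPINC1 and SERPINA3-2. SERPINA5 was 6th in both breeds. SERPINA11 was 12th in LD, between SERPINH1 and SERPINB1, with overlapping ranges on both sides.

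**Figure D3:**
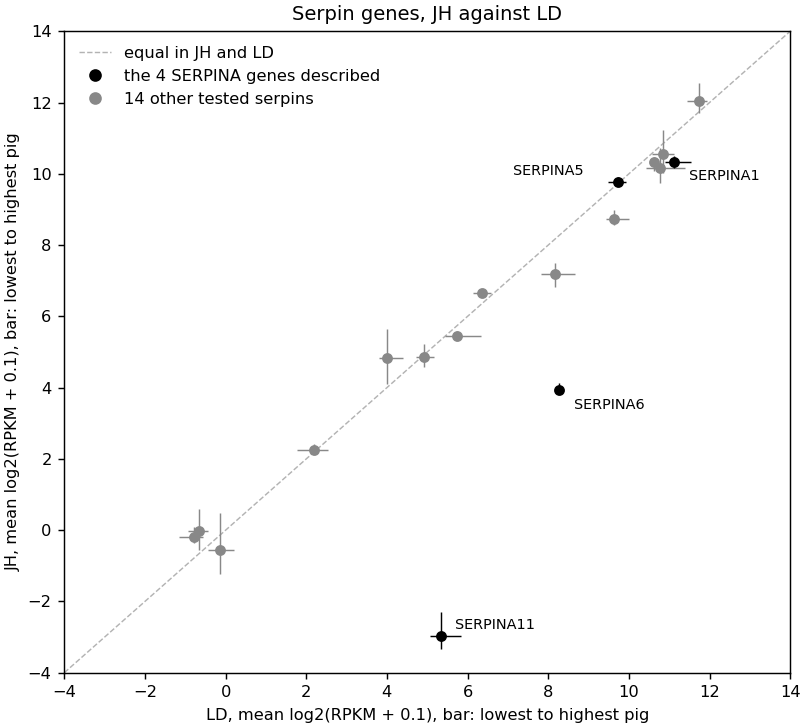
Mean level of each tested serpin in LD (x axis) and JH (y axis) as log2(RPKM + 0.1), with bars from the lowest to the highest pig and a dashed line for equal levels. The 14 other serpins (grey) lie near the line, with log2 fold changes between -0.98 and 0.83, and SERPINA6 and SERPINA11 (black, as are SERPINA1 and SERPINA5) lie far below it.

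For each of the 4 genes, the 3 most similar profiles were taken over the 6 libraries, by the root mean square difference of the log2 values after each gene was centred on its mean. The closest to SERPINA1 were LOC100510914, SERPIND1 and LOC100525445, at differences of 0.05 to 0.07. SERPIND1 and SERPINA1 thus had nearly the same ratios from pig to pig, with LD2 highest in both. The closest to SERPINA5 were FNIP1, HSD17B6 and SEC23IP, at differences of 0.05 to 0.06. The closest to SERPINA6 were GTSF1, UGT1A10 and LOC100739476, at 0.30 to 0.37, of which GTSF1 and LOC100739476 were listed at 0 in every JH library. In LD they were low, at 1.12 to 1.72 RPKM for GTSF1 and 1.49 to 3.31 RPKM for LOC100739476. Their log2 fold changes of -3.86 and -4.36, and so their nearness to SERPINA6, depend on the pseudocount of 0.1. UGT1A10, a glucuronosyltransferase row, was at 0.258 to 0.348 RPKM in JH and 5.44 to 11.3 RPKM in LD, and its family can share reads. The closest to SERPINA11 were UGT2B31, LOC102163638 and LOC100622227, at the wider differences of 1.01 to 1.39. A profile over 6 libraries of 2 breeds mostly reflects the breed difference, and for genes near 0 in JH also the pseudocount. This likeness is therefore a description only.

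Genes that work with the proteins of this cluster were taken from 6 lists, on cortisol handling, glucocorticoid response, proteases, liver transcription factors, secretory handling and the acute phase. Of 123 listed genes other than serpins 85 were tested, and limma called 3 (3.53%, against 2.39% of all tested genes). The 3 were AKR1D1, lower in JH, and MT1A and SEC23A, higher in JH. At an unadjusted p under 0.05 were 20 of the 85 (23.5%), against 17.9% of all tested genes.

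AKR1D1 encodes the steroid 5-beta-reductase, which inactivates cortisol in the liver and also takes part in bile acid synthesis. It was at 76.2, 52.8 and 78.8 RPKM in JH and at 264, 276 and 285 RPKM in LD, with no overlap. limma gave a log2 fold change of -2.01 ± 0.25 (standard error) with an adjusted p of 0.00578, and AKR1D1 was called in all 13 alternative fits. It was the 1 called gene of the 10 tested genes of cortisol handling, against 2.39% of all tested genes. These 10 include the serpin SERPINA7, and 2 of them were at an unadjusted p under 0.05 (20.0%, against 17.9%). ALB, the other large carrier of cortisol in plasma, ranged from 27533 to 33599 RPKM in JH and from 37742 to 53893 RPKM in LD (log2 fold change -0.67, adjusted p = 0.258 from limma). HSD11B1, which regenerates cortisol from cortisone in the liver, was listed at 0 in all 6 libraries, so no level can be given.

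The glucocorticoid receptor NR3C1, looked at after its values were seen, was at 6.72 to 7.66 RPKM in JH and 7.35 to 9.11 RPKM in LD (log2 fold change -0.24, adjusted p = 0.631 from limma). Of 16 tested response genes 6 were at an unadjusted p under 0.05 (37.5%, against 17.9% of all tested genes), and limma called 1, MT1A, with 12311 to 17210 RPKM in JH and 423 to 1139 RPKM in LD (log2 fold change 4.44, adjusted p = 0.001). MT1A encodes a metallothionein, which binds zinc and copper and also responds to these metals, and its family can share reads. FKBP5, a chaperone of the receptor complex and one of its best known targets, was at 29.9, 16.3 and 30.4 RPKM in JH and 4.96, 5.07 and 15.4 RPKM in LD. The JH values lay above the LD values, but FKBP5 was not called (log2 fold change 1.74, standard error 0.45, adjusted p = 0.0919 from limma), except without LD3 (adjusted p = 0.0226). TSC22D3, PER1 and TAT, further targets, had log2 fold changes of 0.04, 0.70 and 0.13, with overlapping breeds. The median over the list was 0.14, against 0.04 over all tested genes. Of the 16, 6 had a log2 fold change below 0 (37.5%, against 47.1% of all tested genes). Among those below 0, looked at after their values were seen, KLF9 was at -1.35 (adjusted p = 0.253 from limma). SGK1 was at -0.64 (adjusted p = 0.302 from limma).

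Of the proteases that serpins inhibit or that act beside them in blood, 14 were tested and limma called 0, with 4 at an unadjusted p under 0.05 (28.6%, against 17.9% of all tested genes). Their median log2 fold change was -0.50, against 0.04 over all tested genes, and 12 of 14 (85.7%) were below 0, against 47.1%. Of the 9 tested hepatocyte markers 8 were below 0 as well, with a median of -0.37, and their part in the protease values was not tested. Thrombin (F2), a target of SERPIND1 and of SERPINA5, ranged from 756 to 986 RPKM in JH and from 970 to 1668 RPKM in LD (log2 fold change -0.55, adjusted p = 0.345 from limma). For F9 the JH values lay below the LD values, but it was not called (log2 fold change -0.37, adjusted p = 0.421 from limma). F7 overlapped between the breeds (log2 fold change -0.45, adjusted p = 0.598 from limma).

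Liver transcription factors held 15 tested genes, of which limma called 0 and 1 was at an unadjusted p under 0.05 (6.67%, against 17.9% of all tested genes). HNF4A, which drives many hepatocyte genes, had a log2 fold change of 0.22, with overlapping breeds. The median over the list was 0.04.

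In the secretory pathway, which folds and exports these proteins, limma called 1 of 20 tested genes, against 2.39% of all tested genes. At an unadjusted p under 0.05 were 3 of the 20 (15.0%, against 17.9%). SEC23A, a subunit of the COPII coat that carries proteins out of the endoplasmic reticulum, was at 41.3, 32.4 and 24.6 RPKM in JH and at 12.6, 12.04 and 12.3 RPKM in LD (log2 fold change 1.38, adjusted p = 0.0336 from limma). With each library left out its log2 fold change was 1.19 to 1.57, and it was called in 1 of these 6 fits, the fit without JH3, with adjusted p up to 0.114 over all alternatives. The chaperones CALR, CANX, HSPA5 and PDIA3 were not called, with log2 fold changes of -0.21, -0.32, 0.37 and -0.31. Of 14 tested genes on the acute phase list limma called 0, with 4 at an unadjusted p under 0.05 (28.6%, against 17.9% of all tested genes). The list was not split by whether a gene rises or falls in the acute phase, so counts over it give no direction of a response. HP, ITIH4, ITIH3 and CRP overlapped between the breeds. In 5 of the 14 the JH values lay below the LD values (35.7%, against 12.5% of all tested genes). Looked at after their values were seen, these were SAA4, LBP, TF, CP and FGA. Their log2 fold changes were -4.97, -2.03, -1.13, -0.76 and -0.12, and none was called (adjusted p = 0.153 to 0.824 from limma). That of SAA4 had a standard error of 1.85 and depends on the pseudocount, since JH2 was at 0 RPKM. SAA4 was at 48.8 and 17.9 RPKM in JH1 and JH3 and at 210, 92.6 and 139 RPKM in LD1 to LD3. SERPINA1 and the SERPINA3 genes, which are not on this list, are acute phase genes. Their log2 fold changes differed in sign, at -0.80 for SERPINA1, -0.62 for SERPINA3-2 and 0.29 for SERPINA3-3.

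**Figure D4:**
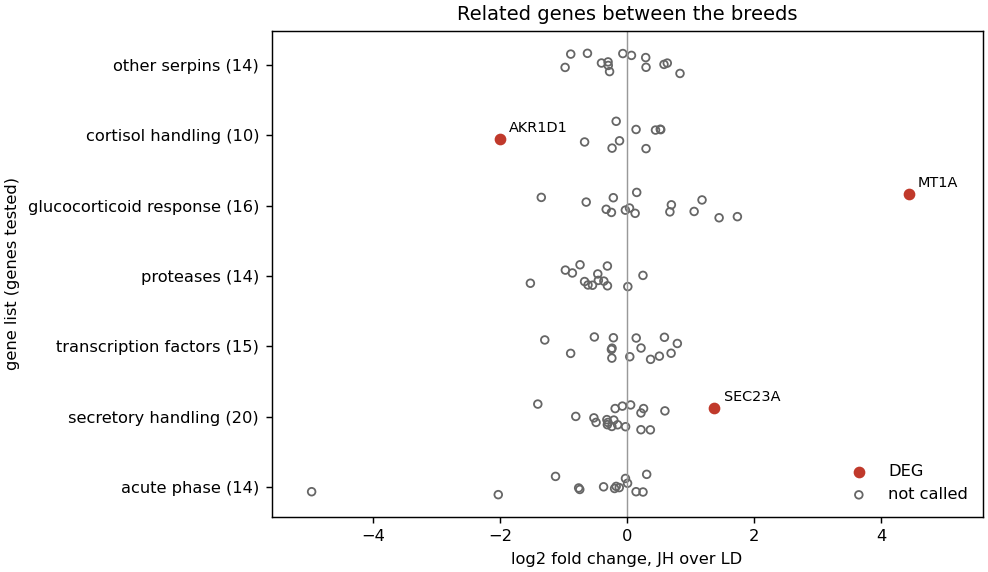
Log2 fold change of JH over LD (x axis) for each tested gene of 7 lists (y axis, with the number tested), where a filled point is a DEG and an open point is not called. The DEGs are AKR1D1 at -2.01, MT1A at 4.44 and SEC23A at 1.38, and the 14 other serpins hold none.

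Markers of cell types were summed in each library beside these values. Over all tested genes 2.39% were called, 17.9% were at an unadjusted p under 0.05 and 47.1% had a log2 fold change below 0. The summed level of 10 hepatocyte markers was 51552 to 55812 RPKM in JH and 70575 to 88347 RPKM in LD, most of it ALB, and limma called 0 of the 9 tested, with 3 at an unadjusted p under 0.05. Of these 9 hepatocyte markers 8 had a log2 fold change below 0. For 8 stellate cell markers the sum was 84.7 to 104 RPKM in JH and 195 to 389 RPKM in LD. All 8 were tested, with 5 at an unadjusted p under 0.05 (62.5%) and 8 with a log2 fold change below 0. Among them, COL1A1, COL1A2 and COL3A1 were called lower in JH. Of the 6 fits that left out a library, COL1A1 was called in 6, COL3A1 in 4 and COL1A2 in 2. For 5 endothelial markers the sum was at most 52.2 RPKM in JH and at least 72.6 RPKM in LD. limma called 0 of these 5, with 2 at an unadjusted p under 0.05 (40.0%) and 5 with a log2 fold change below 0. For 4 bile duct markers the sum was 7.08 to 15.7 RPKM in JH and 15.1 to 35.2 RPKM in LD, with overlapping sums. Of the 3 tested, 3 were at an unadjusted p under 0.05 and 3 had a log2 fold change below 0. EPCAM was called lower in JH, but in 1 of the 6 fits that left out a library (adjusted p up to 0.111 over all alternatives). For 4 erythroid markers the sum was 92.3 to 124 RPKM in JH and 215 to 398 RPKM in LD, most of it HBB. Here too 3 were tested, with 3 at an unadjusted p under 0.05 and 3 with a log2 fold change below 0. HBB was called lower in JH, but in 1 of the 6 fits that left out a library and not with the replicate block (adjusted p = 0.0526 from limma). The 7 macrophage and lymphocyte markers summed to 210 to 454 RPKM in JH and 388 to 590 RPKM in LD, which overlap, and most of the sum was CD14. Of the 5 tested, 0 were called and 0 were at an unadjusted p under 0.05. Their median log2 fold change was 0.11, with 2 of the 5 below 0, and CD163 was listed at 0. The part of these markers in the SERPINA6 and SERPINA11 values was not tested.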

How the data were processed

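Clean 50 bp single reads of 6 liver libraries were aligned by the authors to 1 reference genome for both breeds, Sus scrofa 10.2, with Tophat 2.0.13, counted per gene with gfold 1.1.2 and deposited as RPKM, 1 file per pig. How multiply mapped reads and strand were treated is not given in the sources used here. The small RNA files were not used.

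Breed was taken from the sample labels. limma 3.58.1 (R 4.3.3, lmFit and eBayes with a trend) was run on log2(RPKM + 0.1) for 12993 genes with at least 0.5 RPKM in at least 3 libraries. DEGs had a Benjamini-Hochberg adjusted p below 0.05 over all tested genes and a log2 fold change beyond 1 in either direction. The p-values measure the spread between 3 pigs per breed.

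Read totals and whole reads were recovered by search from the RPKM, after tests on simulated data, as was limma. SERPINA1 could not be resolved into reads. Intervals cover counting error only, on pooled reads at the shortest matching length. They are no test of the breeds.

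The members, lists and tests were chosen with earlier results of these data known. Named genes were the 4 SERPINA genes, their neighbours, the DEGs of each list, the leading genes of each list in its written order, and the 3 nearest profiles. SERPIND1, AGT, SERPING1, SERPINC1, SERPINB1, SERPINH1, SERPINF2, NR3C1, KLF9, SGK1, SAA4, LBP, CP, FGA, CD14 and CD163 were otherwise added after their values were seen. Some genes of the lists are not reported here. Alternatives were other pseudocounts, no filter, quantile normalization, median scaling, the replicate block, no variance trend, the ratio of means and each library left out. Python 3.11.15, pandas 2.3.3 and scipy 1.17.1 were used.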

Additional observations from a re-analysis of the deposited data

How the results depend on the processing

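SERPINA6, SERPINA11 and SERPINA1 stayed lower in JH under all 14 alternatives, which is no sign of stability, since the genes were chosen with this contrast known. With each library left out the log2 fold change was -4.41 to -4.27 for SERPINA6, -8.65 to -8.06 for SERPINA11 and -0.91 to -0.60 for SERPINA1. The log2 fold change of SERPINA11 was -5.32 with a pseudocount of 1, -10.8 with a pseudocount of 0.01 and -10.2 as the ratio of means, since its JH values are near 0. Quantile normalization gave -4.45 for SERPINA6, -1.06 for SERPINA1 (-0.80 before) and -0.18 for SERPINA5 (0.05 before). It called 2 of the other serpins where the RPKM as deposited gave 0. The number of DEGs over all genes was 310, and it was 199 with a pseudocount of 0.01 and 200 with no filter. With each library left out it ranged from 79 (without LD1) to 406 (without JH3), and it was 164 without JH1, 150 without JH2, 114 without LD2 and 149 without LD3. DEGs among the related genes ranged from 2 to 5 in these fits, with 5 without JH3.

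JH and LD libraries share replicate numbers, and the deviations of same-numbered libraries from their breed means correlated at -0.02, 0.05 and 0.18. The RN18S share of the summed RPKM ran in the same order of numbers in both breeds. It was 0.245%, 0.949% and 10.6% in JH2, JH1 and JH3, and 0.375%, 1.31% and 3.67% in LD2, LD1 and LD3. The labels do not say whether libraries of the same number were handled together, so pairing by number cannot be settled. With the replicate block 253 genes were called, 0 other serpins and 3 related genes, and HBB lost its call. JH3 correlated best with its own number and JH1 and JH2 did not. For SERPINA11, 1 read was found in the 3 JH libraries at the shortest matching gene length, so depth limits how exactly its JH level is known. The recovered read totals of the breeds were close, with 21239244 in JH and 22909186 in LD.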
